A study of Cavia porcellus with 35 samples.

Results

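Cholesterol synthesis and transport genes were followed in the medial prefrontal cortex (PFC) of juvenile guinea pigs whose mothers, grandmothers or great-grandmothers received synthetic glucocorticoid (sGC) in pregnancy. The genes were listed by name, with earlier results of these data known. Of 34 named genes, 31 were listed in all 4 count tables and passed the filter on low counts in each, among 11362 to 11720 genes listed per table. IDI1, FDPS and INSIG2 were not analysed here.

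Pregnant females were given repeated courses of the sGC betamethasone, or saline as control, in late gestation. Their offspring were the F1 generation. Sons of each generation were mated with females outside the experiment, so that F2 and F3 animals descended from exposure through the paternal line. The groups were F1 female control (4 animals), F1 female sGC (4), F2 female control (4), F2 female sGC (4), F3 female control (4), F3 female sGC (4), F1 male control (5) and F1 male sGC (6). All 35 animals were taken at postnatal day 40. Only the F1 animals were exposed as fetuses. F1 females, F2 females, F3 females and F1 males were each deposited as a separate table of read counts, so each comparison of sGC with control was made within a table, and levels were not compared across tables.

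Cholesterol hardly crosses the blood-brain barrier, and the brain makes its own. Acetyl units are built through mevalonate into squalene and then into sterols, and the enzymes of both stages are controlled together by the SREBP proteins, which leave the endoplasmic reticulum with their escort SCAP when sterols are scarce. In the juvenile brain oligodendrocytes use much of this cholesterol for myelin, astrocytes export it on APOE particles through ABC transporters, and neurons remove their surplus by hydroxylation through CYP46A1.

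Libraries held 13908007 to 16951061 assigned reads in F1 females, 12819964 to 17052339 in F2 females, 14135131 to 19551079 in F3 females and 25697953 to 31763585 in F1 males. Per animal, the members were counted with between 46 reads (SOAT1 in an F2 female) and 54695 reads (APOE in an F1 male). Levels are given as CPM, the counts of a gene relative to the library size scaled within its table. CPM takes no account of gene length, so levels of different genes are not compared. A gene was called when its adjusted p was under 0.05 by edgeR's quasi-likelihood test over all genes of the table. The labels name prefrontal cortex as the source but the paraventricular nucleus as the punched tissue. Summed over the listed members of a short set of paraventricular markers, which include AVP and OXT, every library held 6.58 to 19.3 CPM, against 215 to 3940 CPM for the listed markers of cerebral cortex. The F1 females were the least even table. Control animals 1 and 4 held 1280 and 1180 CPM of the striatal marker PPP1R1B, against 242 and 424 CPM in the other 2 controls and 81.8 to 288 CPM in the sGC animals. All 6 striatal markers were lower in F1 female sGC animals, 3 of them called, with a median log2 fold change of -2.76, and their summed level was 416 to 2110 CPM in controls and 177 to 489 CPM in sGC animals. The summed level of cortical markers was mostly higher in F1 female sGC animals, with slight overlap, at 1030 to 3940 CPM against 215 to 1140 CPM in controls. Of 4 tested 3 were higher and none was called by the quasi-likelihood test, with a median log2 fold change of 1.66. The glutamatergic marker SLC17A7 was at 989, 317, 171 and 240 CPM in controls 1 to 4 and at 884 to 3580 CPM in sGC animals (log2 fold change 2.03, adjusted p = 0.0571). Results for F1 females are therefore also given without control animals 1 and 4, an omission chosen after the data were seen, which keeps controls 2 and 3 with their low SLC17A7.

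In F1 females the lipid carrier APOE, the cholesterol pump ABCA1, the lysosomal protein NPC2 and the SREBP gene SREBF1 fell after sGC, and the sterol enzyme SC5D rose. Of the 10 tested genes of transport, storage and turnover, 3 fell, none rose and 7 were not called. The 4 members that fell stand against 7.33% of all genes called lower, and the 1 that rose against 9.21% called higher. No sGC animal overlapped any control for 6 members that were lower, among 11.2% of all genes, and for 2 that were higher, among 12% of all genes. Over the 31 members the median log2 fold change was -0.04, against -0.03 over all genes tested, with 14 members higher and 17 lower.

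**Figure D1:**
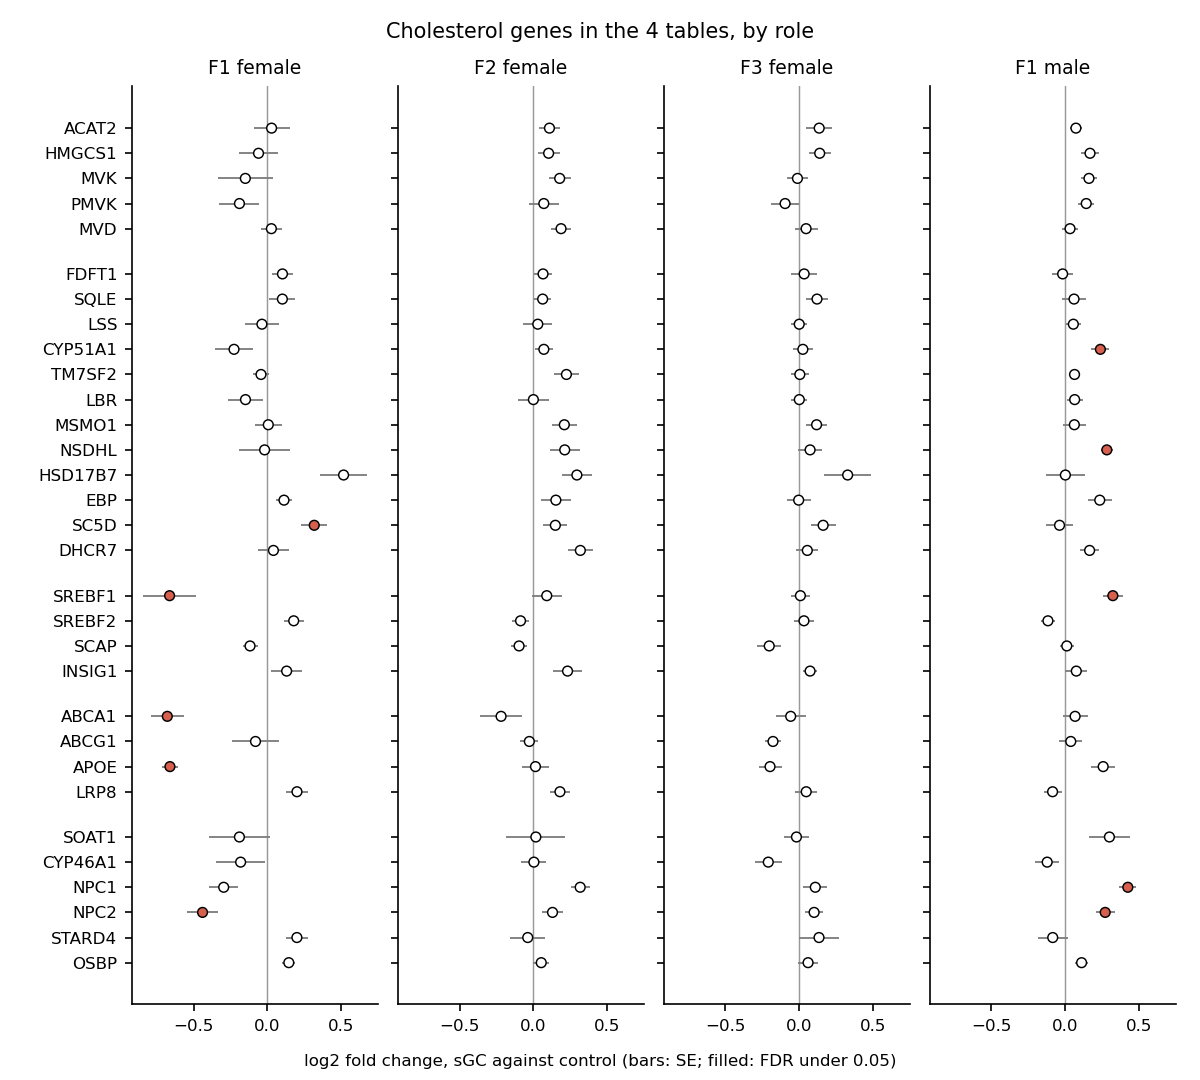
Log2 fold change of each of the 31 members, sGC against control, in the 4 tables; horizontal bars are standard errors, and filled points have an adjusted p under 0.05. Members are ordered by role from mevalonate enzymes at the top to genes of storage and movement at the bottom, and 5 points are filled in F1 females, 5 in F1 males and none in F2 or F3 females.

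APOE, the main lipid carrier secreted by astrocytes, was at 1948, 1888, 1885 and 1816 CPM in the F1 female controls. The sGC animals held 1139, 1202, 1276 and 1152 CPM. The groups lay far apart, with means of 1884 ± 54.1 and 1192 ± 62.0 CPM (SD, n = 4 each). The log2 fold change was -0.66 ± 0.06 (SE, adjusted p = 0.00279).

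ABCA1, the pump that loads cholesterol onto APOE, was at 65.7, 55.8, 51.9 and 53.6 CPM in controls and at 31.4, 31.2, 39.4 and 39.9 CPM in sGC animals. Every sGC animal was below every control, and the log2 fold change was -0.68 ± 0.11 (adjusted p = 0.00744). Its partner ABCG1 overlapped between the groups, at 66.3 to 94.0 CPM in controls and 61.7 to 102 CPM in sGC animals, with a log2 fold change of -0.08 ± 0.16. LRP8, a neuronal receptor for APOE and reelin, was at 142 to 166 CPM in controls and 157 to 185 CPM in sGC animals (log2 fold change 0.20 ± 0.07, adjusted p = 0.0912), and was not called.

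NPC2, which takes cholesterol out of lysosomal lipid and hands it to NPC1, was at 45.4, 61.4, 50.8 and 48.6 CPM in controls. It was at 37.2, 38.0, 34.3 and 42.4 CPM in sGC animals, again without overlap. Its log2 fold change was -0.44 ± 0.10 (adjusted p = 0.0250). NPC1, the membrane protein that receives that cholesterol, was at 95.4 to 129 CPM in controls and 81.8 to 93.9 CPM in sGC animals. Its groups did not overlap, but the log2 fold change of -0.30 ± 0.10 was not called (adjusted p = 0.0711).

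SREBF1, which encodes the SREBP that acts mainly on fatty acid genes, was at 59.2, 45.2, 37.6 and 38.2 CPM in controls and at 22.5, 25.4, 31.3 and 34.8 CPM in sGC animals. The lowest control and the highest sGC animal were only a few CPM apart, and the log2 fold change was -0.66 ± 0.18 (adjusted p = 0.0380). SREBF2, the SREBP of cholesterol synthesis, was at 358 to 388 CPM in controls and 371 to 444 CPM in sGC animals (log2 fold change 0.18 ± 0.07, adjusted p = 0.0985). Neither SCAP nor INSIG1, which holds SCAP back when sterols are plentiful, was called.

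SC5D, which sets the C5 double bond late in synthesis, was at 194, 233, 214 and 213 CPM in controls and at 240, 296, 241 and 287 CPM in sGC animals. It was the only enzyme of the pathway called in F1 females, with a log2 fold change of 0.32 ± 0.09 (adjusted p = 0.0417). None of the 5 mevalonate enzymes was called by the quasi-likelihood test, nor had any an unadjusted p under 0.05, and their median log2 fold change was -0.06. HMGCS1, which makes the precursor of mevalonate, was at 650 to 964 CPM in controls and 648 to 810 CPM in sGC animals. HSD17B7, a sterol ketoreductase, had the highest log2 fold change of any member here, 0.52 ± 0.16, and just missed the threshold (adjusted p = 0.0564).

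Not all of these calls were firm. APOE and ABCA1 were called with any 1 animal left out, with adjusted p of 0.00218 to 0.0217 and 0.0117 to 0.0274. NPC2 was lost without control 3, sGC 1 or sGC 3 (0.0661, 0.0674 and 0.0573). SREBF1 was called only where sGC 4 was the animal left out (0.0407), and the other 7 omissions gave 0.0517 to 0.0940. SC5D was called without control 2 or sGC 3 (0.0428 and 0.0430), and the other 6 gave 0.0531 to 0.0968. The number called was 2 without control 3 or sGC 1 and 3 without control 4 or sGC 2. With controls 1 and 4 both omitted, APOE (-0.64, adjusted p = 0.00910), ABCA1 (-0.58, 0.0282) and NPC2 (-0.54, 0.0248) were called, and SREBF1 (-0.52, 0.0872) and SC5D (0.28, 0.123) were not. SC5D was also lost under upper-quartile scaling (0.28, adjusted p = 0.0564).

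Markers of several cell types moved in the same animals. Of 7 tested astrocyte markers 3 were called lower and none higher, with a summed level of 7660 to 8360 CPM in controls and 7310 to 7770 CPM in sGC animals. Of 5 tested microglial markers 4 were called lower (234 to 283 CPM against 175 to 197 CPM). Of 6 neuronal markers 3 were called higher and 1 lower (4700 to 6180 CPM against 7300 to 11000 CPM). All 10 tested myelin markers were lower in sGC animals and 0 were called by the quasi-likelihood test, with a median log2 fold change of -0.72 and sums of 4820 to 16300 CPM and 3790 to 7670 CPM. The part of these markers, and of the striatal and cortical ones above, in the changes of APOE, ABCA1, NPC2, SREBF1 and SC5D was not tested, and fewer cells of a type cannot be told apart from less RNA per cell in this tissue.

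In F1 males 5 members rose after sGC and none fell. They were NPC1, NPC2, the SREBP gene SREBF1 and the sterol enzymes NSDHL and CYP51A1. Among all genes 5.74% were called higher. At an unadjusted p under 0.05, 13 members were higher, against 12.5% of all genes, and 1 (SREBF2) was lower. All sGC males lay above all control males for 4 members, among 4.22% of all genes. The members' median log2 fold change was 0.07, against 0.00 for all genes, and 25 of 31 were higher.

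NPC1 was at 71.3, 83.5, 81.7, 80.2 and 91.1 CPM in the control males. In the sGC males the lowest value was 101, the median 112 and the highest 116 CPM, so the groups were clearly separate. The log2 fold change was 0.42 ± 0.06 (SE, adjusted p = 0.00303). NPC2 was at 31.7 to 40.2 CPM in controls, with a median of 34.9 CPM, and at 40.3 to 45.9 CPM in sGC males, touching but not overlapping, with a log2 fold change of 0.27 ± 0.06 (adjusted p = 0.0199).

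SREBF1 was at 31.1, 28.3, 29.3, 29.4 and 33.5 CPM in control males and at 34.6 to 43.2 CPM in sGC males, with no overlap. Its log2 fold change was 0.32 ± 0.07 (adjusted p = 0.0118). SREBF2 went the other way, at 430 to 485 CPM in controls and 394 to 461 CPM in sGC males, and was not called (log2 fold change -0.12 ± 0.05, adjusted p = 0.150).

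NSDHL, which removes carbon from the C4 position of sterols, was at 114, 106, 102, 107 and 103 CPM in control males and at 124 to 134 CPM in sGC males. The sets did not overlap, and the log2 fold change was 0.28 ± 0.04 (adjusted p = 0.00303). CYP51A1, the lanosterol 14-demethylase, was at 209, 201, 172, 199 and 190 CPM in controls. One sGC male, animal 6, was at 199 CPM within the range of the controls, and the other sGC males were at 225 to 249 CPM. Its log2 fold change was 0.24 ± 0.06 (adjusted p = 0.0273). All 5 tested mevalonate enzymes were higher in sGC males, with log2 fold changes of 0.03 to 0.17, and none was called by the quasi-likelihood test, 3 of them having an unadjusted p under 0.05. APOE was at 1222 to 1556 CPM in controls and 1417 to 1922 CPM in sGC males, overlapping (log2 fold change 0.26 ± 0.08, adjusted p = 0.0700), and ABCA1 was at 29.6 to 38.8 and 29.8 to 43.0 CPM. The likelihood ratio test, DESeq2 and a single fit of all 8 groups each called APOE higher in sGC males.

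NPC1, NSDHL and SREBF1 were called with any 1 male left out, and NSDHL was lost in a single fit of all 8 groups (log2 fold change 0.28, adjusted p = 0.0651). NPC2 lost its call without control 4 (adjusted p = 0.0533), where 3 members in all were called. CYP51A1 was called without control 1, control 2, sGC 3 or sGC 6 (0.0255, 0.0395, 0.0461 and 0.00628), and lost its call in the other 7 omissions, at 0.0513 to 0.0640. Myelin markers rose in the same animals. All 10 tested were called higher, with a median log2 fold change of 0.96 and sums of 3660 to 6930 CPM in controls and 7790 to 13300 CPM in sGC males. MOG, a protein of the myelin surface, was at 280, 240, 161, 159 and 332 CPM in controls and at 316 to 621 CPM in sGC males (log2 fold change 1.00, adjusted p = 0.0109). The part of myelin in the changes of the 5 members was not tested.

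**Figure D2:**
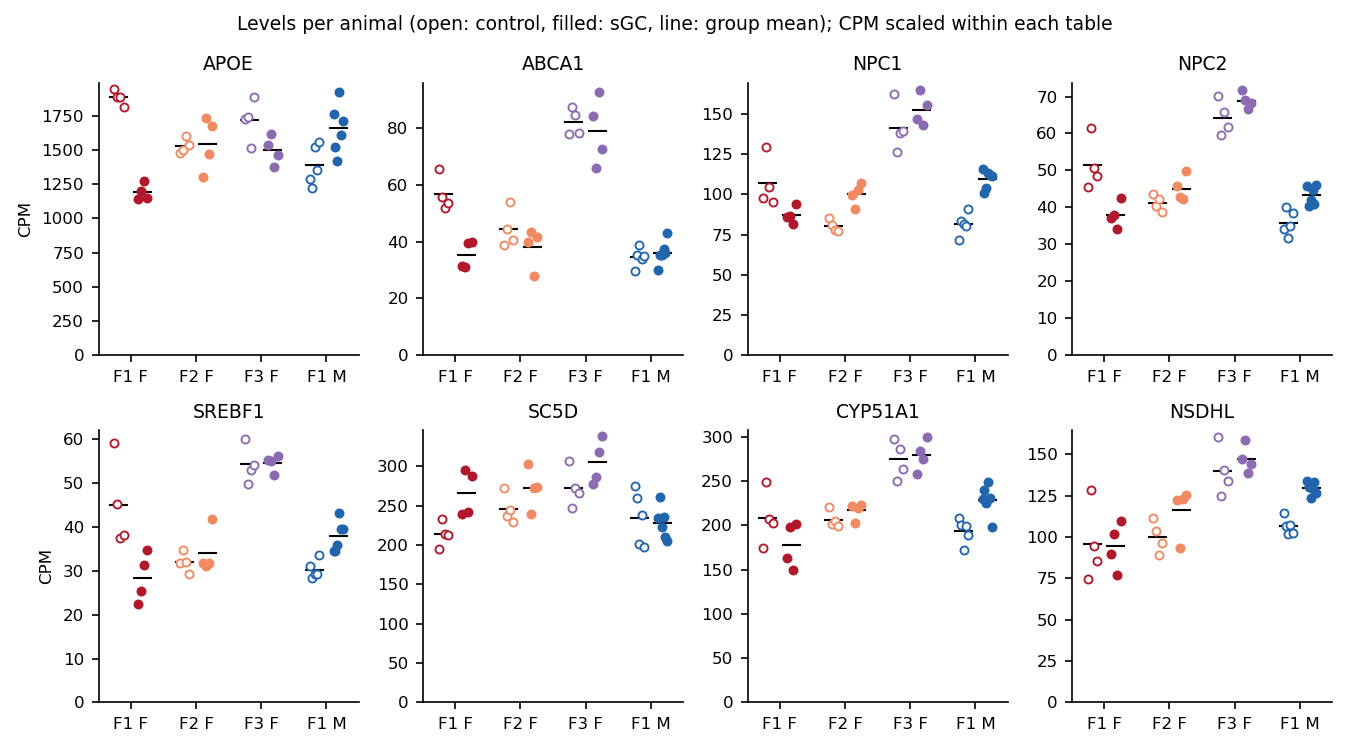
CPM per animal of the 8 members called in any table, for F1 (F1 F), F2 (F2 F) and F3 females (F3 F) and F1 males (F1 M); open circles are controls, filled circles sGC animals and lines group means. APOE and NPC2 sGC animals lie below controls in F1 females, and NPC1, NPC2, SREBF1 and NSDHL sGC animals lie above controls in F1 males.

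In F2 females no member was called by the quasi-likelihood test, among 0.278% of all genes called in either direction. At an unadjusted p under 0.05 there were 9 members, all higher, against 8.72% of all genes higher at that level. The likelihood ratio test and DESeq2 each called 2, NPC1 and DHCR7, where they called 534 of 11132 and 473 of 11362 genes. All sGC animals were above all controls for 3 members, among 4.08% of all genes, and 25 of the 31 were higher by any amount. The median log2 fold change was 0.09 over the members, 0.15 over the 12 sterol enzymes and 0.01 over all genes.

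NPC1 was at 85.6, 80.8, 78.0 and 77.5 CPM in F2 female controls and at 99.5, 91.1, 103 and 107 CPM in sGC animals. The groups did not overlap. Its log2 fold change was 0.32 ± 0.07 (adjusted p = 0.0556), and it was called without control 1 (0.0435) or sGC 2 (0.0126). DHCR7, the last enzyme of one branch of synthesis, was at 43.9, 45.0, 37.6 and 44.4 CPM in controls and at 56.5, 46.4, 55.5 and 54.6 CPM in sGC animals. It did not overlap either, its log2 fold change was 0.32 ± 0.08 (adjusted p = 0.101), and it was called without sGC 2 (0.0244).

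HSD17B7 was at 15.3, 18.3, 15.4 and 17.0 CPM in F2 female controls and at 23.1, 18.3, 19.1 and 20.4 CPM in sGC animals (log2 fold change 0.29 ± 0.10, adjusted p = 0.184). TM7SF2, a sterol reductase, was at 80.8, 75.6, 68.3 and 72.9 CPM in controls and at 91.1, 74.8, 85.4 and 96.2 CPM in sGC animals, with sGC 2 inside the range of the controls (0.22 ± 0.08, adjusted p = 0.230). Animal 2 was the lowest sGC animal for all 4 of these genes. It was also the lowest for MOG, at 228 CPM against 349 to 506 CPM in the other sGC animals and 130 to 226 CPM in controls. MOG had a log2 fold change of 1.14 (adjusted p = 0.0517), and the 10 tested myelin markers were all higher, with a median of 1.02. Their part in the levels of NPC1 and DHCR7 was not tested.

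In F3 females no member was called by the quasi-likelihood test, the likelihood ratio test or DESeq2, where 1.34% of all genes were called by the first. The 4 members with an unadjusted p under 0.05 were all lower, against 8.07% of all genes lower at that level. ABCG1 was at 72.2, 78.6, 73.3 and 78.8 CPM in controls and at 72.0, 67.6, 63.8 and 64.1 CPM in sGC animals. It was the only member whose sGC animals were all below the controls, among 4.35% of all genes (log2 fold change -0.18 ± 0.06, adjusted p = 0.151).

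APOE was at 1726, 1742, 1515 and 1890 CPM in F3 female controls and at 1538, 1618, 1374 and 1460 CPM in sGC animals, overlapping, with a log2 fold change of -0.20 ± 0.08 (adjusted p = 0.234). SCAP was at 112, 125, 111 and 130 CPM in controls and at 111, 114, 90.9 and 99.2 CPM in sGC animals (-0.20 ± 0.08, 0.249). CYP46A1, which makes 24-hydroxycholesterol in neurons, was at 118, 158, 138 and 153 CPM in controls and at 126, 130, 112 and 122 CPM in sGC animals (-0.21 ± 0.09, 0.282). It was called with control 1 left out (-0.29, adjusted p = 0.0497), the control with the most MOG, 1050 CPM against 345 to 590 CPM in the others. Neuronal markers summed to 4840 to 6810 CPM in F3 female controls and 7860 to 8450 CPM in sGC animals, with 2 of 6 called higher. Cortical markers summed to 535 to 910 CPM and 1030 to 1290 CPM, and striatal markers to 246 to 743 CPM and 157 to 361 CPM, with none of the 3 and 6 tested called by the quasi-likelihood test. The part of these markers in the levels of ABCG1, APOE, SCAP and CYP46A1 was not tested.

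Taking the tables together, sGC animals were higher every time for 8 members, ACAT2, MVD, SQLE, MSMO1, HSD17B7, DHCR7, INSIG1 and OSBP. No member was lower in all 4. Of 10725 genes tested in every table, 8.22% were higher in all 4 and 10.4% lower in all 4. These counts take no account of the size or error of a change. None of the 8 was called in any table by the main quasi-likelihood fit, but alternatives called some. DHCR7 was called in F2 females by the likelihood ratio test and DESeq2. HSD17B7 was called in F1 females by those 2 tests, RLE scaling, the replicate block and the single fit. OSBP was called in F1 females by DESeq2, RLE scaling and the single fit. Some fits with 1 animal left out also called HSD17B7 or DHCR7.

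Whether the response differed between tables was tested directly, by the interaction of sGC with table. Between F1 females and F1 males 8 of 31 members differed, where 31.7% of all genes did, so the members' share was no larger than that of all genes. APOE had a log2 fold change of -0.66 in F1 females and 0.26 in F1 males, a difference of 0.91 ± 0.11 (SE, adjusted p = 3.1e-05). For SREBF1 the difference was 0.98 ± 0.18 (0.000672), for ABCA1 0.74 ± 0.14 (0.00114), for NPC1 0.71 ± 0.11 (0.000159) and for NPC2 0.70 ± 0.12 (0.000320). CYP51A1, at -0.23 in females and 0.24 in males, differed by 0.46 ± 0.13 (0.0148).

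SREBF2 and LRP8 differed in the other direction, by -0.30 ± 0.08 (adjusted p = 0.00894) and -0.29 ± 0.10 (0.0319), each being above 0 in F1 females and below 0 in F1 males. All but LRP8 were called with any 1 animal left out. LRP8 lost its call without F1 female control 2, 3 or 4, F1 female sGC 2 or 4, F1 male control 1 or F1 male sGC 5 (0.0503 to 0.0704), and under upper-quartile scaling (0.0557). With F1 female controls 1 and 4 omitted 13 members differed, where 3594 of 11274 genes did. They were the same 8 and HMGCS1, MVK, PMVK, NSDHL and SOAT1. The response of MOG also differed, by 1.84 ± 0.39 (adjusted p = 0.00191), opposite in sign to SREBF2 and LRP8. Its part in the members' differences was not tested. The F1 male table was also sequenced more deeply than the female tables, and sex cannot be told apart from what else differed between the tables.

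**Figure D3:**
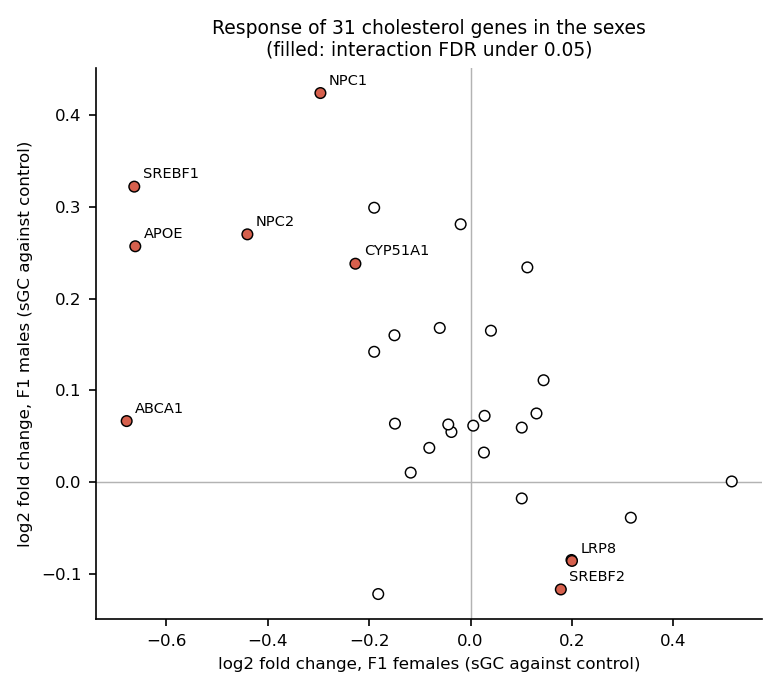
Log2 fold change of each of the 31 members in F1 males (vertical axis) against F1 females (horizontal axis), sGC against control; filled points have an interaction with an adjusted p under 0.05. Named points lie mostly at upper left, below 0 in females and above 0 in males, with SREBF2 and LRP8 at lower right.

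Between F1 and F2 females 5 members differed, where 13.8% of all genes did, a similar share. NPC1, at -0.30 in F1 and 0.32 in F2 females, differed by 0.61 ± 0.12 (adjusted p = 0.00671). APOE differed by 0.67 ± 0.11 (0.00298), NPC2 by 0.56 ± 0.13 (0.0122), SREBF1 by 0.75 ± 0.22 (0.0350) and SREBF2 by -0.27 ± 0.09 (0.0496). APOE, NPC1 and NPC2 were called with any 1 animal left out. SREBF1 lost its call in 7 of 16 omissions, those of F1 female control 2, F1 female sGC 1 and 2, F2 female control 1, 3 and 4 and F2 female sGC 4 (0.0577 to 0.0774), and with F1 female controls 1 and 4 both omitted (0.0561). SREBF2 was called only without F1 female control 1 or 4, F1 female sGC 3 or F2 female control 4 (0.0171 to 0.0439), and gave 0.0506 to 0.0960 otherwise; the likelihood ratio test gave 0.0547 and upper-quartile scaling 0.0740. The number called was 3 without F1 female control 2, F1 female sGC 1 or 2, F2 female control 1 or 3, or F2 female sGC 4. MOG differed by 1.98 ± 0.42 (0.00988), and its part was not tested.

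The F1 females also enter the comparison with F3 females, where no member differed by the quasi-likelihood test and 0.0981% of all genes were called. At an unadjusted p under 0.05 there were 5 members, and the share of all genes at that level was not counted. The likelihood ratio test and DESeq2 each called 3, ABCA1, APOE and NPC2, where they called 114 of 11212 and 202 of 10583 genes. In the quasi-likelihood fit the 3 members differed by 0.60 ± 0.16, 0.44 ± 0.10 and 0.52 ± 0.12 (adjusted p = 0.120, 0.0994 and 0.0994). Without F1 female control 1 the quasi-likelihood test called NPC2. F2 against F3 females and F2 females against F1 males each gave 0 members by the quasi-likelihood test, the likelihood ratio test and DESeq2. The quasi-likelihood test called 0.018% and 0% of all genes there. In each pair 1 member had an unadjusted p under 0.05, a level at which all genes were not counted. F3 females against F1 males gave 1 member, where 5.55% of genes were called. It was APOE, at -0.20 in F3 females and 0.26 in F1 males, with a difference of 0.44 ± 0.12 (adjusted p = 0.0451). That call was lost in 12 of 19 omissions of 1 animal, and was kept without F3 female control 3, F3 female sGC 2, F1 male control 3 or 5, or F1 male sGC 2, 3 or 6; the adjusted p ranged from 0.0214 to 0.108.

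Members were next compared with MOG from animal to animal, with each group's mean removed so that differences between treatments or tables did not enter. MBP was to be used as well but was not among the listed genes. MOG stood close to other myelin genes on this scale, with r of 0.98 for MAG, CNP and CLDN11, and least close to MAL (0.606). Over the 35 animals 6 members rose with MOG, against 7.73% of all 10724 genes, and 2 fell as MOG rose, against 6.29% of all genes (permutation within groups, adjusted over all genes). The median r was 0.25 over the members and -0.01 over all genes. All r share the same libraries and the same MOG values.

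NSDHL had the highest r, 0.754 (permutation p = 3e-05, adjusted 0.000949), with a Spearman rho of 0.674 (p = 0.00015). NPC1 followed with r = 0.716 (p = 0.00026, adjusted 0.00484) and rho = 0.669 (p = 0.00017). CYP51A1 had r = 0.664 (p = 0.00020, adjusted 0.00405) and rho = 0.589 (p = 0.00115). These 3 genes were also positive in each table taken alone, at 0.776 to 0.964 in F1 and F3 females, 0.802 to 0.865 in F2 females and 0.228 to 0.348 in F1 males.

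NPC2 had r = 0.651 (p = 0.00103, adjusted 0.0133) and rho = 0.573 (p = 0.00291), and DHCR7 r = 0.566 (p = 0.00486, adjusted 0.0384) and rho = 0.510 (p = 0.00777). OSBP, a carrier of sterol between membranes, was the other member called, at 0.492 (p = 0.00672, adjusted 0.0484) and rho = 0.439 (p = 0.0166). HMGCS1 reached 0.527 and was not called (p = 0.00954, adjusted 0.0616, rho = 0.461, p = 0.0156).

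CYP46A1 fell as MOG rose, with r = -0.676 (p = 0.00070, adjusted 0.0100) and rho = -0.572 (p = 0.00226). ABCA1 had r = -0.575 (p = 0.00027, adjusted 0.00498) and rho = -0.609 (p = 0.00026), and it was negative in every table, between -0.698 and -0.503. LRP8 was also negative, at r = -0.502 (p = 0.00931, adjusted 0.0606) and rho = -0.408 (p = 0.0320), and was not called. APOE showed little relation, at r = -0.132 (p = 0.494) and rho = -0.191 (p = 0.328).

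**Figure D4:**
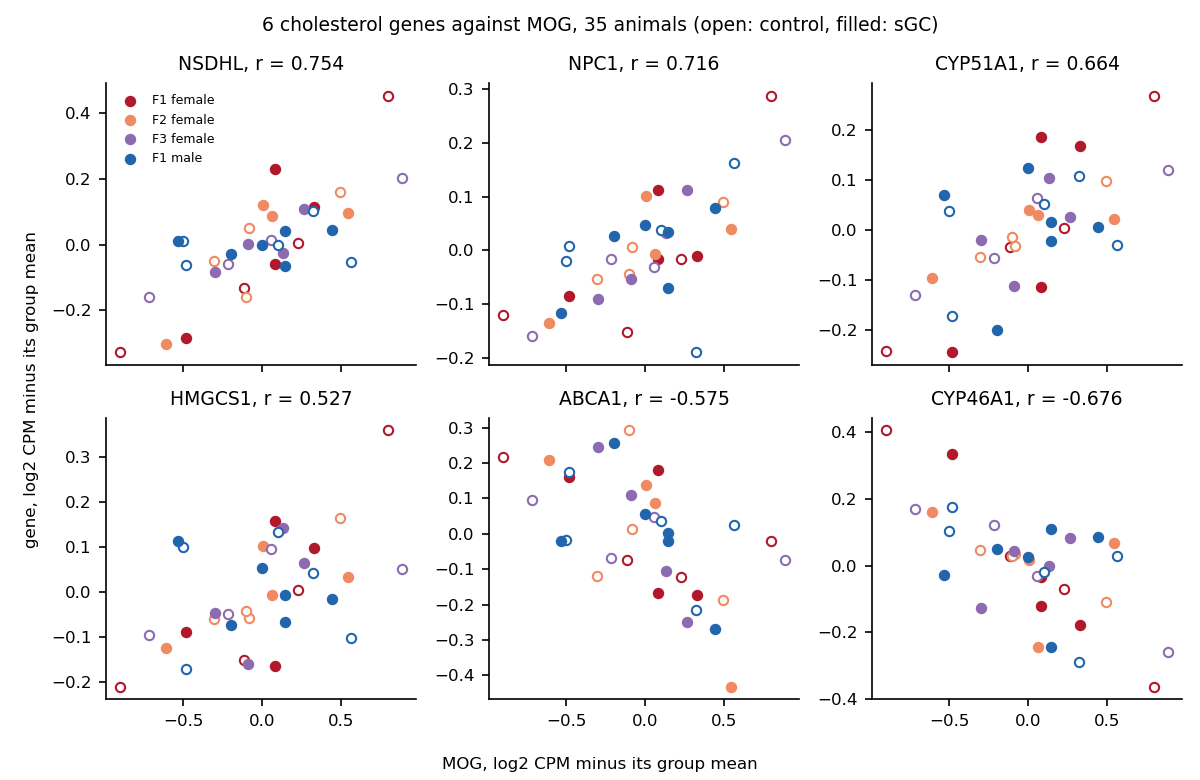
Log2 CPM of 6 members (vertical axes) against that of MOG (horizontal axes), each minus its group mean, in 35 animals; colours mark the tables, open circles controls and filled circles sGC animals. NSDHL, NPC1 and CYP51A1 rise with MOG, HMGCS1 less tightly, and ABCA1 and CYP46A1 fall.

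The 2 animals farthest from the median of MOG were F1 female control 1, at -0.90 on the centred log2 scale, and F3 female control 1, at 0.88. Without them r was 0.664 for NSDHL, 0.637 for NPC1, 0.567 for CYP51A1 and -0.557 for ABCA1, all called. NPC2 (0.555, adjusted p = 0.0626), DHCR7 (0.483, 0.120), OSBP (0.378, 0.189) and CYP46A1 (-0.515, 0.0784) were then no longer called. Leaving those animals out also narrowed the range of MOG, and the share of all genes called fell from 14.0% to 10.6%. The part of those 2 animals and that of the narrower range in the loss cannot be told apart, and neither was tested. DHCR7 was also lost in 12 of 35 omissions of a single animal, at 0.0506 to 0.108, and by rank correlation (0.0556). OSBP was lost by rank correlation too (0.0912), and its r within F2 females was -0.318. With F1 female controls 1 and 4 omitted, 7 members were called in place of 8, and NSDHL, NPC1 and CYP51A1 had r of 0.678, 0.684 and 0.571.

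Taken table by table the relation was uneven. The median r of the members was 0.608 in F1 females, 0.178 in F2 females, 0.570 in F3 females and -0.167 in F1 males, and the number positive was 22, 19, 22 and 12 of 31. No member was called within a table of 8 females or 11 males by exact permutation within groups. Among all genes 0 were called in each female table and 115 in F1 males. The smallest p possible was 0.00174 with 8 animals. At an unadjusted p under 0.05 there were 13, 5, 13 and 1 members, and the share of all genes at that level was not counted. A difference in r between tables was not tested.

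**Figure D5:**
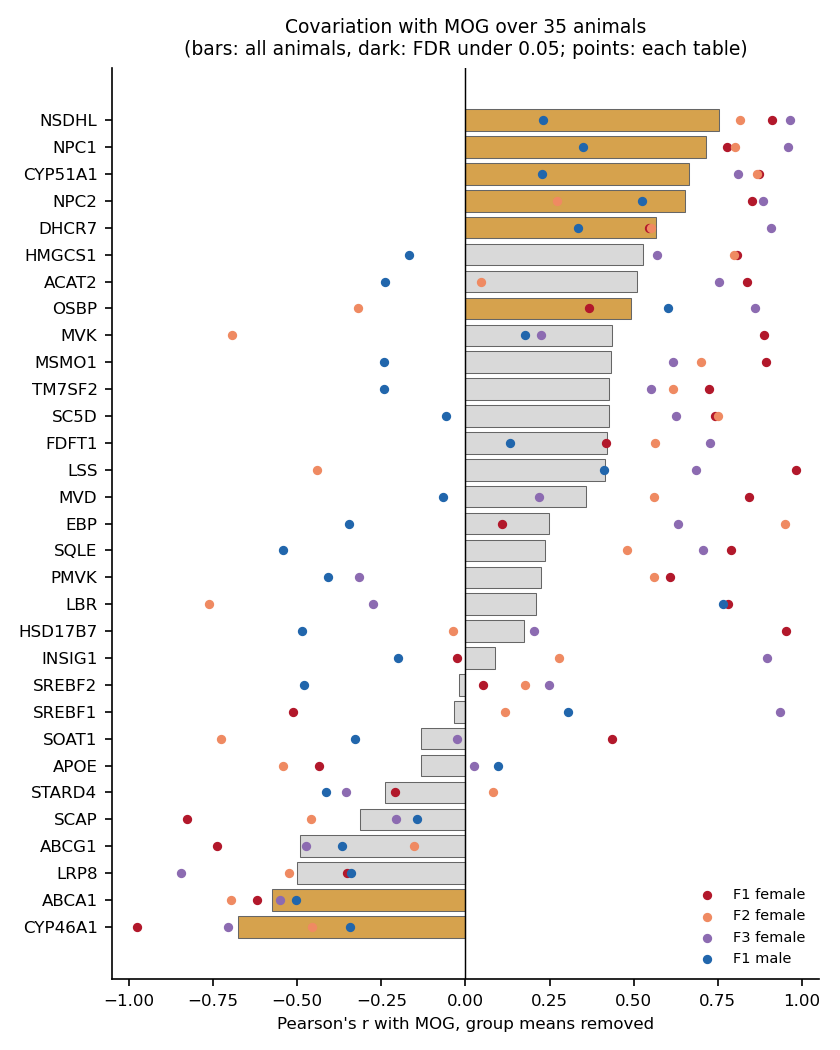
Pearson's r of each member with MOG, group means removed; bars are r over 35 animals, dark where the adjusted p is under 0.05, and points are r within each table. Sterol and mevalonate enzymes fill most of the upper rows, and efflux genes and CYP46A1 the lower end; the F1 male points often lie apart from the female points.

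The enzymes also varied with each other. Over the 35 animals, group means removed, the median r between pairs of the 17 tested enzymes was 0.421, against 0.138 between all members and -0.002 between all genes. HMGCS1 paired most closely with CYP51A1 (0.863) and with MSMO1 (0.862), the C4 methyl oxidase. NSDHL and CYP51A1 had r of 0.808. These values share libraries and scaling factors and are given as description.

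Genes of the pathway outside the members were counted in the same way. Of 29 further sterol genes, 24 were tested in F1 females, 24 in F2 females, 23 in F3 females and 24 in F1 males, and 0, 0, 0 and 4 were called by the quasi-likelihood test. Against 5.74% of all genes called higher in F1 males, the 4 called there were all higher. Among them, PLTP, a phospholipid transfer protein, rose from 205 to 245 CPM (log2 fold change 0.26 ± 0.05, adjusted p = 0.00665), and CH25H, a cholesterol hydroxylase, from 0.385 to 0.786 CPM (1.01 ± 0.26, 0.0295), a low level. Of 12 fatty acid genes driven by SREBP proteins 10 were tested in each table. In F1 females 1 was called higher and 2 lower, where 9.21% of all genes were called higher and 7.33% lower. In F1 males 2 were called, both higher, where 5.74% of all genes were, and none was called in F2 or F3 females. The elongase ELOVL5 and the desaturase FADS2 fell in F1 females (-0.38 ± 0.07 and -0.35 ± 0.07, adjusted p = 0.0131 and 0.0138) and rose in F1 males (0.32 ± 0.04 and 0.23 ± 0.05, adjusted p = 0.00303 and 0.0148). ACACA, which makes malonyl-CoA, rose in F1 females (0.21 ± 0.06, 0.0465).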

How the data were processed

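RNA from brain punches was sequenced by the authors as poly(A)-selected libraries. The deposited values used were raw read counts per gene in 4 tables. TopHat2 and edgeR are named in the submitters' processing notes. The counting tool, genome build and annotation are not given in the sources used here, and no coordinates are printed. The tables also hold columns of the authors' own comparisons, deposited as log2 fold changes, log2 CPM, test scores, p-values and corrected p-values, which were not used.

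Members, roles, marker lists and other gene lists were chosen with earlier results of these data known. Symbols were matched ignoring case. Named genes were those with an adjusted p under 0.05 in any table, or the 4 of smallest p in tables with fewer than 4 called, and the 5 highest and 3 lowest r. That rule was written for r with MBP, which is not among the listed genes, so MOG was used. HMGCS1, OSBP and APOE in the covariation, and other members given for context, were named after their values were seen.

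Counts were filtered per table (minimum count 10, minimum total 15), scaled by TMM and tested by the quasi-likelihood test of edgeR 4.0.16 in R 4.3.3, sGC against control, with Benjamini-Hochberg adjustment over all genes of a table. Differences in response were tested as interactions in 6 pairs of tables. Covariation with MOG used log2 CPM (prior count 2) centred within the 8 groups, with 100000 permutations within groups. Scripts were tested on simulated data. Alternatives included DESeq2 1.42.0, other scalings and filters, a single fit, a replicate block and leaving out each animal. Replicate numbers showed no consistent pairing of samples: the correlation of same-numbered animals ran from -0.332 to 0.338. The same number was the best match only for number 2 in F1 females and number 4 in F3 females. This check cannot exclude a shared batch. No 2 libraries of the same table agreed within sampling noise, and libraries of different tables were not compared in this way. The sources state that animals are separate biological replicates; at most 1 animal per sex per litter is stated for females. No sequences were used here. Some results for genes outside the members are not reported here.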

Additional observations from a re-analysis of the deposited data

Results flagged for a closer look

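DHCR7 in F2 female control animal 3 was at 37.6 CPM, below 43.9 to 45.0 CPM in the other controls. The gap was 0.846 of the range of the 4 controls. Of 36 groups of values examined 1 stood apart in this way, and chance gives about 1 in 20.

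The response to sGC differed between tables, by the interaction test, 14 times over 8 members. Between F1 females and F1 males the log2 fold change in males minus that in females was 0.456 for CYP51A1, 0.981 for SREBF1, -0.302 for SREBF2, 0.739 for ABCA1, 0.910 for APOE, -0.292 for LRP8, 0.712 for NPC1 and 0.702 for NPC2. Between F1 and F2 females the F2 value minus the F1 value was 0.749 for SREBF1, -0.271 for SREBF2, 0.668 for APOE, 0.606 for NPC1 and 0.562 for NPC2. Between F3 females and F1 males the difference was 0.435 for APOE. The F1 females enter 13 of these, which are therefore not independent.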

How the results depend on the processing

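No fold change or interaction followed across settings reversed under any alternative run. The fold changes followed were those called, or the 4 of smallest p in tables with fewer than 4 called. Interactions were followed only where called, and other named values were not followed. The r of the 5 highest and 3 lowest members did not reverse either. OSBP was not among those 8, and its r within F2 females was -0.318. The median r of the members was positive over all animals and -0.167 within F1 males alone, where HMGCS1 also had r of -0.167. In F1 females 5 members were called, 8 with DESeq2 and 10 with a single fit of all 8 groups. Among all genes, 1864 of 11268, 2423 of 11032 and 3327 of 10948 were called by these fits. With 1 animal left out 2 to 5 members were called. Of the 5 called, 1 was higher and 4 lower, against 3 and 4 under RLE scaling and 0 and 4 under upper-quartile scaling. In F2 females none was called by the quasi-likelihood test, 2 by the likelihood ratio test, 2 by DESeq2 and 0 to 2 with 1 animal left out. There the likelihood ratio test called 534 of 11132 genes and DESeq2 473 of 11362. F3 females gave 0 to 1 and F1 males 3 to 7 with 1 animal left out. In F1 males the likelihood ratio test, DESeq2 and the single fit each called 6, APOE among them. Of all genes they called 1410 of 11524, 1583 of 11491 and 766 of 10948. Interactions of F1 females with F1 males were called for 8 members, where 3569 of 11274 genes were called, and for 7 to 11 with 1 animal left out. With F1 female controls 1 and 4 omitted 13 members were called, where 3594 of 11274 genes were. Interactions of F1 with F2 females were called for 5 members, and for 3 to 6 with 1 animal left out. Those of F1 with F3 females were called for 0 members, and for 3 by the likelihood ratio test and 3 by DESeq2. These 2 tests called 114 of 11212 and 202 of 10583 genes. Omitting the same 2 controls gave 1 member, and leaving out 1 animal gave 0 to 1. For F3 females and F1 males 1 member was called, 2 under upper-quartile scaling and 0 to 1 with 1 animal left out. Covariation with MOG was called for 8 members, 4 without the 2 farthest animals, 6 to 12 with 1 animal left out and 0 within each table alone; under upper-quartile scaling 4 were positive and 4 negative in place of 6 and 2, and centred within tables only, r for ABCA1 was -0.143 and not called. The cause of these shifts was not tested, except that fewer animals entered where some were left out.

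The replicate block fits same-numbered animals as pairs, although the numbers showed no consistent pairing. It left 5 members called in F1 females, with HSD17B7 in place of SREBF1 (adjusted p = 0.0923). It called 0 in F2 females, 0 in F3 females and 4 in F1 males, where NPC2 was lost (0.0749). It called 8 interactions of F1 females with F1 males, with SC5D in place of LRP8 (0.0847), 3 with F2 females, where SREBF1 (0.102) and SREBF2 (0.0765) were lost, and 0 for F3 females with F1 males, where APOE was lost (0.0868). No fit with MBP could be run, since it is not among the listed genes, and no search for promoter motifs was run. With 4 animals in most groups small changes are hard to detect, tables were made separately, and levels are from whole tissue.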
